A study of Mus musculus with 2 samples.

Results

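The genes described here are the microRNA cluster of Mir322, Mir503, Mir351, Mir542, Mir450a-2, Mir450a-1 and Mir450b on the mouse X chromosome, measured by microRNA-seq in the adrenal gland, an endocrine organ with a steroid-producing cortex around a medulla that secretes catecholamines. They were chosen by symbol in the annotation, as neighbours listed as parts of 1 primary transcript, and no measured value enters the rule, although earlier results of these data were known when it was written. They are 7 of the 2202 microRNA genes counted, and all 7 were found in both tables. GENCODE M21 writes Mir450a-1 and Mir450a-2 as Mir450-1 and Mir450-2. The series holds 2 libraries in 1 group, from wild-type C57BL/6J adrenal tissue with no treatment named. The labels number them biological replicates 1 and 2, give each its own tissue sample but the same donor identifier, and leave age and developmental stage unknown. The labels conflict on sex, which is female in one field and not collected in another. Nothing states that the tissues came from separate animals, so differences between the libraries may be technical, and no condition can be compared with another. The cluster is known for links to cell growth, but no growth state was varied in these samples.

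A microRNA is cut from a hairpin in a longer transcript, and the arm that is loaded into an Argonaute protein pairs with target mRNAs mainly through its seed, bases 2 to 8 from the 5′ end. miR-322 is the rodent counterpart of human miR-424. With miR-503 it belongs to the wider miR-15/16 group, which is known for repressing cell cycle genes such as those of D-type cyclins, and both are known to increase when muscle cells leave the cycle and differentiate. miR-351 carries the seed of miR-125, a family best known from blood and muscle development. miR-542-3p is known, from human cells, for targeting the mRNA of survivin, an inhibitor of apoptosis. No role is given here for the miR-450 products.

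The sequences show which members share a seed with each other or with other families, and which of them a short read cannot tell apart. All 7 members matched entries in the RefSeq microRNA table (GRCm38.p6), which lists 14 mature products with 13 distinct sequences for them. In the lines that follow, capitals mark the seed. The seed of miR-322-5p is that of miR-15a and miR-16, while miR-503-5p shares bases 2 to 7 with miR-322-5p and departs at base 8. Over their whole length, these shared bases included, the pair is identical at 11 of 22 positions.
miR-322-5p: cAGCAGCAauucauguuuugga
miR-503-5p: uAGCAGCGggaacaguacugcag
miR-15a-5p: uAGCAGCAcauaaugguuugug
miR-16-5p: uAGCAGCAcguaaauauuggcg

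miR-351-5p has the complete 7-base seed of miR-125a and miR-125b. It matches miR-125a-5p at 10 of 24 positions.
miR-351-5p: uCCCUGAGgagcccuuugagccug
miR-125a-5p: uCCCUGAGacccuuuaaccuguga
miR-125b-5p: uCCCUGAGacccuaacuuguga

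The seed of miR-542-3p is carried by no other mature entry of the table, and that of miR-450a-5p by its 2 source genes alone.
miR-542-3p: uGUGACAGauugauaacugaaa
miR-450a-5p: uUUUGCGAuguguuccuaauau
miR-450b-5p: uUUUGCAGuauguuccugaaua

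The 3p arms of the 3 miR-450 genes differ from each other. miR-450a-1-3p and miR-450b-3p have the same seed and agree at 20 of 22 positions, and miR-450a-2-3p has a seed of its own.
miR-450a-1-3p: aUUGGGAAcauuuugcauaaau
miR-450a-2-3p: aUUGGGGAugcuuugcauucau
miR-450b-3p: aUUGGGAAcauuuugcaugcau

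Among 2202 GENCODE microRNA transcripts, the 22 bases of miR-450a-5p occur in exactly 2 genes, Mir450a-1 and Mir450a-2. Reads with several alignments stand in a row of their own in the deposited tables and outside the gene counts, so reads of miR-450a-5p are missing from both genes and their levels are lower bounds of uncertain size. Each other mature sequence of the cluster occurred in its own gene only, also when 1 mismatch was allowed. The genome itself was not searched for further copies. A count is for a whole hairpin, so the 5p and 3p products were not separated.

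All 7 hairpins lie on the minus strand within chrX:53047997-53054349 (mm10). Mir322 is the most upstream, at chrX:53054255-53054349. Mir503 follows after a gap of 200 bases at chrX:53053984-53054054, and Mir351 after a further 630 bases at chrX:53053255-53053353. A gap of 3767 bases separates Mir351 from Mir542 (chrX:53049403-53049487), and 1035 bases separate Mir542 from Mir450a-2 (chrX:53048299-53048367). Mir450a-1 (chrX:53048154-53048244) and Mir450b (chrX:53047997-53048078) end the series, with gaps of 54 and 75 bases. No other annotated gene overlaps any of the hairpins, so GENCODE M21 holds no host exon or intron for them. The lincRNA Gm28730 lies in the gap between Mir351 and Mir542, and the non-coding transcript C430049B03Rik lies 0.696 kb beyond Mir322, both on the minus strand. The nearest protein-coding genes are Plac1, known for its part in placental growth, at 15.6 kb on the upstream side and Hprt, the purine salvage enzyme, at 26.3 kb on the other side.

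The replicate 1 library held 9137907 counts on the strand of microRNA genes and replicate 2 held 6570375, out of 18743064 and 14457994 reads. A count of 0 allows up to 0.328 CPM in replicate 1 and 0.457 CPM in replicate 2, where CPM is counts per 1000000 counts on the strand of microRNA genes. Multiply aligned reads were 35.9% of all reads in replicate 1 and 36.0% in replicate 2. The marker lists hold no microRNA that defines the adrenal cortex, so the labelled tissue could be checked in part only. Mir375, a microRNA of neuroendocrine cells, reached 49445 ± 1171 CPM (SD, n = 2) and endothelial Mir126a 58001 ± 5199 CPM. The striated muscle list, of interest because this cluster is known from muscle, summed to 5.36 CPM in replicate 1 and 6.39 CPM in replicate 2. Of its 10 genes 6 had no count, although Mir1a-1, Mir1a-2, Mir133a-1 and Mir133a-2 are among these and their identical copies keep reads out of the counts.

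The cluster was expressed, and its counts were very uneven among the genes. How efficiently each mature sequence enters a library was not measured here, so ratios and shares between genes compare counts only. In whole tissue a lower level from fewer cells of a type cannot be told apart from less RNA per cell. The 7 genes of the cluster summed to 11435 CPM in replicate 1 and 10581 CPM in replicate 2, a mean of 11008 ± 604 CPM (SD, n = 2), which is 1.10% ± 0.0604 of all counts. All 7 had at least 10 counts in both libraries, where 18.3% of all 2202 genes did. The order was Mir322, Mir351, Mir542, Mir503, Mir450b, Mir450a-2 and Mir450a-1, and it was the same in both libraries. It was also the same for all 7 when levels were divided by hairpin length, although a microRNA read is a whole mature product and its number does not scale with that length.

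**Figure D1:**
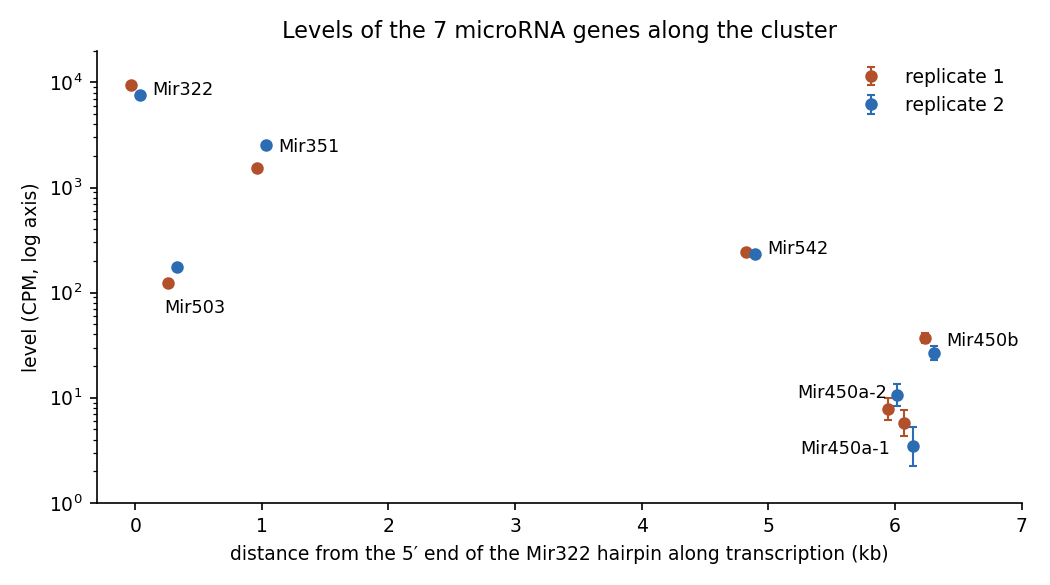
Level of each gene in each library (CPM, log axis) against its distance from the 5′ end of the Mir322 hairpin in the direction of transcription (kb); bars are exact 95% counting intervals and are smaller than the points for the abundant genes. Mir322 stands highest in both libraries, at 9485 and 7612 CPM, and the 3 miR-450 genes at the far end are the lowest.

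Mir322, the miR-15/16-type member, carried most of the signal. It had 86670 counts in replicate 1 and 50011 in replicate 2, or 9485 and 7612 CPM, a mean of 8548 ± 1324 CPM. It ranked 21 and 23 among the 2202 genes. Its counts were 82.9% of the cluster in replicate 1 and 71.9% in replicate 2.

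Mir503, which lies next to Mir322 and has its seed up to base 7, was far lower. It had 1127 counts in replicate 1 and 1155 in replicate 2, or 123 and 176 CPM, a mean of 150 ± 37.1 CPM. The mean level of Mir322 was 57.2 times that of Mir503. Its counts came to 1.30% of those of Mir322 in replicate 1 and 2.31% in replicate 2.

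Mir351, the member with the miR-125 seed, was the next most abundant gene. It had 14007 counts in replicate 1 and 16546 in replicate 2, or 1533 and 2518 CPM, a mean of 2026 ± 697 CPM. It ranked 59 and 47. Its share of the cluster's counts was 13.4% in replicate 1 and 23.8% in replicate 2.

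Mir542 had the closest CPM values in the 2 libraries, relative to its level, of all members. It had 2219 counts in replicate 1 and 1537 in replicate 2, or 243 and 234 CPM, a mean of 238 ± 6.30 CPM. Mir450b followed with 339 and 176 counts, or 37.1 CPM in replicate 1 and 26.8 CPM in replicate 2. The genes that share miR-450a-5p had the lowest counts. Mir450a-2 had 72 and 70 counts, or 7.88 CPM in replicate 1 and 10.7 CPM in replicate 2, and Mir450a-1 had 53 and 23 counts, or 5.80 and 3.50 CPM. The 3 miR-450 genes together summed to 50.8 CPM in replicate 1 and 40.9 CPM in replicate 2.

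Between neighbours in the order, the values of both libraries did not overlap for any pair. The closest pair was Mir450a-2 and Mir450a-1. Their exact 95% counting intervals overlapped in replicate 1, at 6.17 to 9.92 CPM for Mir450a-2 and 4.34 to 7.59 CPM for Mir450a-1, and not in replicate 2, at 8.31 to 13.5 CPM and 2.22 to 5.25 CPM. These intervals cover counting error only. The order was not tested across the libraries. The mean level of the highest member was 1838 times that of the lowest, a value that rests on the uncertain count of Mir450a-1, and among the genes with no identical mature copy the span from Mir322 to Mir450b was 268-fold. In 16 other clusters of neighbouring microRNA genes, listed with earlier results of these data known, the median ratio of highest to lowest was 10.9, and 1 exceeded the 1838-fold ratio, while 3 exceeded the 268-fold one. The first of these, the cluster of Mir17 to Mir92-1, rests on a single count of Mir19a. That of Mir106a to Mir363 rests on Mir19b-2, with 3 counts in replicate 1 and 0 in replicate 2. The remaining one is the cluster of Mir23b to Mir24-1. Genes with identical mature copies were left out of the 268-fold span but not out of the other clusters, so the 2 sides are not alike.

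The ratio of the libraries was set side by side for the members, which are listed as parts of 1 primary transcript. It cannot show whether they keep step between animals, because separate animals are not stated and the differences may be technical. The members did not all differ in one direction. Mir322, Mir450b, Mir450a-1 and Mir542 were higher in replicate 1, Mir351 and Mir503 were higher in replicate 2, and Mir450a-2 did not pass the test. The split of each gene's counts between the libraries was set against the split of the TMM-scaled library sizes (edgeR) by an exact binomial test, two-sided, with Benjamini-Hochberg adjustment over all 426 genes that had 20 or more counts in total. The test compares these libraries, not conditions, and takes in counting error only. In all, 6 of 7 members passed an adjusted p of 0.05, where 56.1% of tested genes did. The 4 members higher in replicate 1 stand beside 29.6% of tested genes called in that direction, and the 2 higher in replicate 2 beside 26.5%. Calls were more frequent among abundant genes. Of the 184 genes at a mean of 100 CPM or more 85.3% were called, as were all 4 members at that level. With library totals as the scale, 4 members were called, 2 in each direction, and over all genes the calls split into 93 higher in replicate 1 and 150 higher in replicate 2, against 126 and 113 with TMM.

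Mir322 was 1.33-fold higher in replicate 1, a log2 ratio of replicate 1 over replicate 2 of 0.42 (95% counting interval 0.40 to 0.43). Mir351 was 1.54-fold higher in replicate 2, a log2 ratio of -0.62 (-0.65 to -0.59; adjusted p = 3.71e-305, exact binomial). Mir503 was 1.33-fold higher in replicate 2, a log2 ratio of -0.41 (-0.53 to -0.29; adjusted p = 2.95e-11, exact binomial). The genes on either side of Mir503 thus differed in opposite directions. Mir450b was 1.48-fold higher in replicate 1, a log2 ratio of 0.57 (0.30 to 0.84; adjusted p = 5.05e-05, exact binomial). Mir542 had a log2 ratio of 0.15 (0.057 to 0.25; adjusted p = 0.0035, exact binomial), and by total counts its ratio of 0.054 did not pass (adjusted p = 0.38, exact binomial). Mir450a-1 had a log2 ratio of 0.81 (0.095 to 1.60; adjusted p = 0.0375, exact binomial), and by total counts it did not pass (adjusted p = 0.082, exact binomial). Mir450a-2 had a log2 ratio of -0.34 (-0.83 to 0.16; adjusted p = 0.25, exact binomial).

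**Figure D2:**
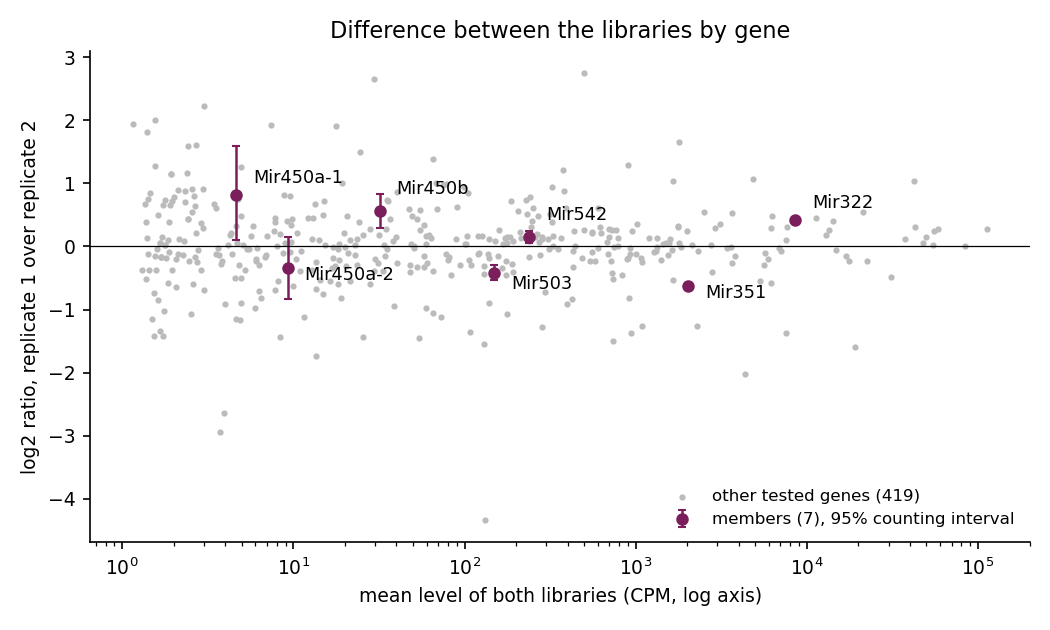
Log2 ratio of replicate 1 over replicate 2 (TMM scaling) against the mean level of both libraries (CPM, log axis) for the 426 tested genes, with the 7 members in colour and their exact 95% counting intervals. Mir322 lies above the line of no difference, at 0.42, and Mir351 below it, at -0.62, while the wide intervals of Mir450a-1 and Mir450a-2 come from their low counts.

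These differences were within the range seen over all genes. The median absolute log2 ratio was 0.42 for the members, 0.30 for all tested genes and 0.23 for genes at 100 CPM or more. Of the genes at 100 CPM or more, 16.3% had a larger absolute ratio than Mir351 and 28.3% a larger one than Mir322. The median log2 ratio was 0.15 for the 7 members and 0.020 for all 426 tested genes.

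The balance between members needs no scaling of the libraries, and of the ratios to Mir322 that of Mir351 differed most between the libraries. Mir351 had 16.2% as many counts as Mir322 in replicate 1 and 33.1% in replicate 2. The log2 ratio of Mir351 to Mir322, replicate 1 over replicate 2, was -1.03 (exact conditional 95% interval -1.07 to -0.997). For Mir503 it was -0.83 (-0.95 to -0.71) and for Mir542 -0.26 (-0.36 to -0.17), so all 3 were lower relative to Mir322 in replicate 1. Mir450a-2 also lay below 0, at -0.75 (-1.25 to -0.26). Mir450b, at 0.15 (-0.12 to 0.42), and Mir450a-1, at 0.41 (-0.32 to 1.18), had intervals that include 0. These intervals were added after the data were seen and cover counting error only.

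Unequal ratios among neighbours were common in these libraries. In 10 of the 16 other clusters some genes were called higher in replicate 1 and others higher in replicate 2. The span from the lowest to the highest log2 ratio was 1.43 for the members, against a median of 0.86 and a range of 0.020 to 2.47 in the other clusters, of which 4 had a span at least as wide. The other clusters hold 2 to 6 genes, fewer than the 7 here. Genes with identical mature copies or few counts were not left out of these spans. The widest includes Mir16-1, whose miR-16-5p is also made from Mir16-2, and that of Mir200a to Mir429 includes a gene with 24 and 8 counts. Among genes at 100 CPM or more the 4 members spanned 1.03, and 5 of the 12 other clusters with at least 2 such genes spanned as much or more.

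**Figure D3:**
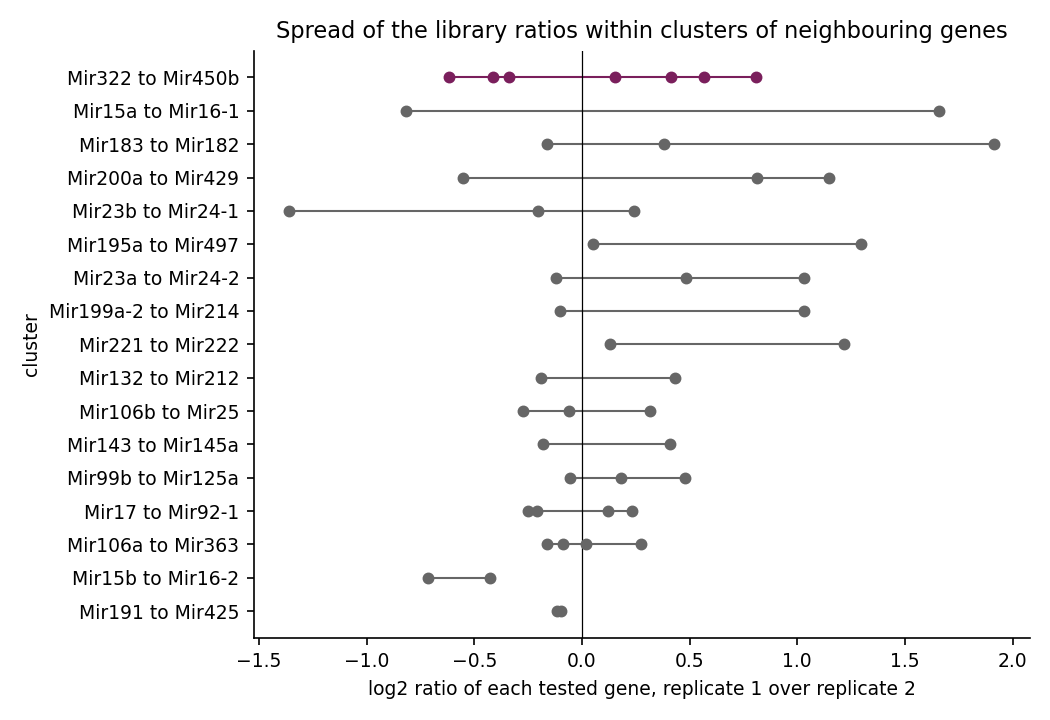
Log2 ratio of replicate 1 over replicate 2 for each tested gene (points) of the 7-gene cluster (top row, in colour) and of 16 other clusters of neighbouring microRNA genes, with a line from the lowest to the highest ratio. The members run from -0.62 to 0.81, and the widest of the other clusters, Mir15a to Mir16-1, spans 2.47. Reads that align to both Mir16-1 and Mir16-2 are not in its counts.

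Calls were made in several marker lists, to be read beside 29.6% of all tested genes called higher in replicate 1 and 26.5% called higher in replicate 2. Of the 4 neuroendocrine genes 3 were higher in replicate 1 and the other one did not pass. Their summed level was 54062 CPM in replicate 1 and 51805 CPM in replicate 2, a log2 ratio of 0.16. Of the 5 smooth muscle and fibroblast genes 4 were tested, and 2 of them were higher in replicate 1, while 1 was higher in replicate 2 and the other one did not pass. The summed level of the 5 genes was 18908 CPM in replicate 1 and 15027 CPM in replicate 2, a log2 ratio of 0.43, led by Mir143. Mir126a, the single endothelial gene, had 61677 CPM in replicate 1 and 54325 CPM in replicate 2, a log2 ratio of 0.28. Of the 3 erythroid genes 2 were higher in replicate 2 and the other one did not pass. They summed to 144 CPM in replicate 1 and 295 CPM in replicate 2, and Mir122 of hepatocytes had 128 and 71.5 CPM. The part of any of these cell types in the ratios of the members was not tested.

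Among genes with the miR-15/16 seed, Mir322 was the largest source of counts. The group holds 12 genes whose mature sequence has that seed over bases 2 to 7, of which 8 reached 10 counts in each library. The contribution of Mir322 was 57.6% of the group's counts in replicate 1 (exact binomial 95% interval 57.3 to 57.8) and 57.7% in replicate 2 (57.3 to 58.0). Mir503 added 0.749% in replicate 1 and 1.33% in replicate 2. Both together made up 58.7% ± 0.464 (SD, n = 2). The next genes were Mir15a, at 2685 CPM in replicate 1 and 910 CPM in replicate 2, and Mir195a, at 1473 and 1524 CPM. Mir16-1, Mir497, Mir15b and Mir16-2 averaged 297 to 910 CPM over both libraries. Mir195b had 1 count in replicate 1 and 0 in replicate 2, and Mir6342, Mir6353 and Mir6419 had none. The summed level of the group was 16468 CPM in replicate 1 and 13199 CPM in replicate 2. Mir322 and this sum differed by a like proportion, but Mir322 itself makes up most of the sum. The share of Mir15a was 16.3% in replicate 1 and 6.90% in replicate 2. Mir16-1 and Mir16-2 encode the same miR-16-5p, and reads that align to both are not in the gene counts. The group's sum is therefore understated by an unknown amount, and the share of the cluster may be overstated. With both copies left out of the sum, which can only raise it, the share was 61.5% in replicate 1 and 66.9% in replicate 2.

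In the miR-125 seed group the cluster was a minor source. Mir125a, in a cluster with Mirlet7e and Mir99b, led the 4 genes of this group that had counts, at 13351 CPM in replicate 1 and 12586 CPM in replicate 2. Mir6367 and Mir6394 also carry the seed in the table and had no count. Mir351 was second with a share of 9.82% in replicate 1 (exact binomial 95% interval 9.67 to 9.98) and 15.8% in replicate 2 (15.6 to 16.04), a mean of 12.8% ± 4.24. Mir125b-2 had 436 and 530 CPM, and Mir125b-1 had 287 and 283 CPM, both uncertain because miR-125b-5p comes from both. The summed level of the group differed little, at 15606 CPM in replicate 1 and 15918 CPM in replicate 2, while the contribution of Mir351 within it did differ. Reads that align to both miR-125b genes are outside this sum. It is therefore understated by an unknown amount, and the share of Mir351 may be overstated.

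**Figure D4:**
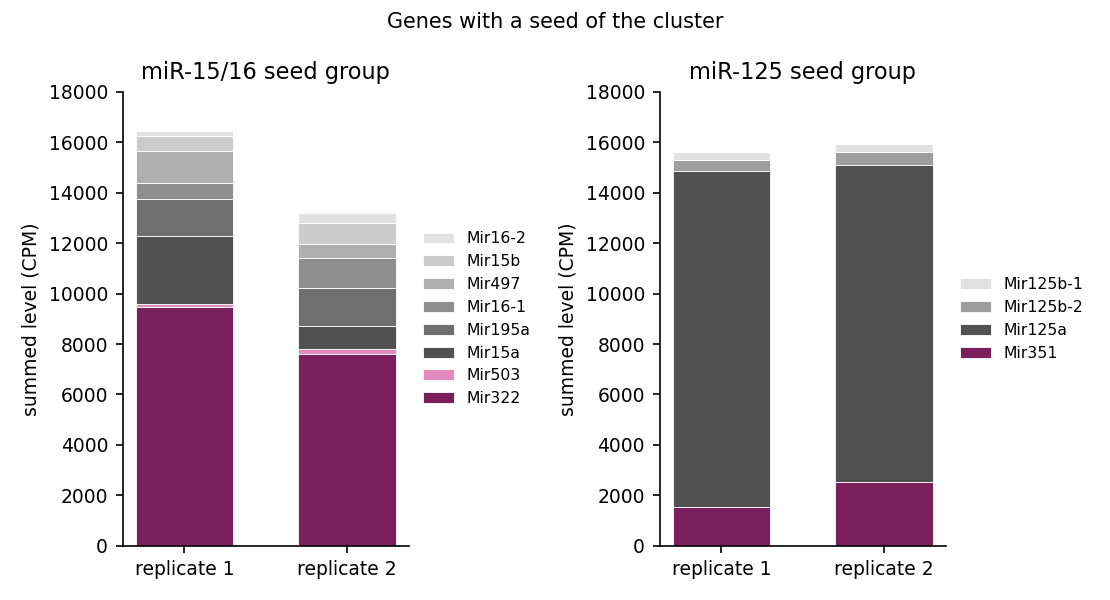
Summed level (CPM) of the genes with the miR-15/16 seed (left) and the miR-125 seed (right) in each library, stacked by gene, with members of the cluster in purple and pink at the bottom; genes with a mean of 1 CPM or less are left out. Mir322 forms 57.6% and 57.7% of the left bars, and Mir351 9.82% and 15.8% of the right bars. Reads that align to both Mir16 genes or to both miR-125b genes are not in the bars, so these shares may be overstated.

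Other microRNAs with known links to cell growth were called about as often as microRNA genes in general. Of the 26 genes listed, 20 passed the filter on low counts. The test called 7 genes higher in replicate 1 and 6 in the other direction, and 7 did not pass, where 56.1% of all tested genes were called. These shares are near those of all tested genes, and the median log2 ratio was 0.0088 for the list and 0.020 for all tested genes. Mir21a led the list at 9066 CPM in replicate 1 and 29277 CPM in replicate 2. Mir675, made from the growth-restraining imprinted transcript H19, had no count in either library. Mir483, in an intron of the growth factor gene Igf2, had 23.2 CPM in replicate 1 and 17.8 CPM in replicate 2, a log2 ratio of 0.48 (0.15 to 0.82; adjusted p = 0.00795, exact binomial).

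By distance of log2(CPM + 1) over the 2 libraries, the genes outside the cluster nearest to Mir322 were Mir98 (distance 0.22), Mirlet7f-2 (0.33) and Mir411 (0.50). Mir98 and Mirlet7f-2 are let-7 family genes and also lie on the X chromosome. The genes nearest to Mir351 were Mir676 (0.41), Mirlet7c-2 (0.46) and Mir140 (0.46). Mir676, likewise X-linked, had 1295 CPM in replicate 1 and 1995 CPM in replicate 2. With 2 libraries this likeness describes level and little else. The levels leave out reads with several alignments, so any of these genes with an identical mature copy is understated by an unknown amount.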

How the data were processed

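Small RNA from total adrenal RNA, with a labelled size range below 30 (unit not stated), was sequenced in 2 libraries. The authors deposited raw read counts per microRNA gene for each library, on mm10 with GENCODE M21 per the description beside the tables. Names of the aligner and counter were not given in the sources used here, nor any setting. Per table there are 3 unnamed count columns, identified from their values as either strand, strand of the gene (used here) and opposite strand. Rows of unmapped, multiply aligned, unassigned and ambiguous reads, 51.2% and 54.6% of the replicate 1 and replicate 2 reads, stayed out of library sizes. The rule for the members uses symbols alone, but it and the lists were chosen with earlier results of these data known.

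From the counts, CPM, exact binomial tests across all genes with at least 20 counts, and log2 ratios with 0.5 counts added were computed (edgeR 4.0.16 for TMM, DESeq2 1.42.0 for other size factors, R 4.3.3, scipy 1.17.1). TMM raised all log2 ratios by 0.098 against total counts. The quasi-likelihood test needs residual degrees of freedom, which 2 libraries of 1 group do not give for their contrast. The binomial test was first checked on simulated counts with counting (Poisson) error only, where it called 153 of 197 changed and 1 of 235 unchanged genes. That is the error the test assumes, so the check does not cover other variation between libraries. No molecular identifiers are stated, so counting error is all that the intervals and detection limits include. The rule named all members, every gene of both seed groups, the leading genes of the growth-linked list and of the other clusters (the clusters' own are not printed, for length), the 3 genes nearest to Mir322 and to Mir351, and X-linked neighbours. Mir375, Mir126a, Mir143, Mir652, Mir483, Mir675, Mir122, Mir1a-1, Mir1a-2, Mir133a-1, Mir133a-2, Mir19a and Mir19b-2 were named after their values were seen. From the seed lists Mir497b, Mir1907 and Mir670 were left out, since no mature sequence of theirs in the table holds the seed.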

Additional observations from a re-analysis of the deposited data

How the results depend on the processing

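Of 75 values recomputed with both libraries, 58 were scored as kept. Another 12 moved by more than the spread between replicates, 4 lost a call or an interval that excludes 0, 1 gained such an interval and 0 reversed. Kept means the same direction and side of the threshold (for an interval, of 0), or a move smaller than that spread. The number of called members and the order had a looser rule, under which a fall from 6 called members to 4 was still scored as kept. A further 20 leave out 1 library, which with 2 libraries always moves a mean by less than its SD and so says nothing of stability. Some of the 58 say nothing of it either. The 7 ratios with 1 count added in place of the usual amount reuse the reported tests, so no call could change. The 2 shares that take every gene with the seed add no counts and are the same as reported. With no filter on low counts the ratios of the members are those reported, and only the adjusted p could change. With all reads of the table as the denominator the summed level of the cluster was 5191 CPM, and with counts on either strand it was 12116 CPM, since these denominators differ in size. Either library alone gave 10581 or 11435 CPM. The share of miR-15/16 seed counts from Mir322 and Mir503 was 64.2% with single-copy genes only and 62.4% with counts on either strand, against 58.7%. The first leaves both Mir16 genes out of the sum, which can only raise the share. In the second the group's sum in replicate 1 was 139003 counts, against 150480. Mir497 had 11477 counts there, and the strand opposite to Mir497b holds 11477 as well. Neither value is thus a better estimate of the share. The number of called members was 6 as reported, 4 by total counts, 6 by DESeq2 size factors, 5 with no filter on low counts and 6 with counts on either strand. The lost calls were Mir542 by total counts and Mir450a-1 by total counts and with no filter (adjusted p = 0.070, exact binomial). Total counts lower all ratios by 0.098, and without the filter 818 genes enter the adjustment. Set against all other members in place of Mir322, the ratio of Mir542 had an interval that includes 0 (-0.15 to 0.036) and that of Mir450b one that does not (0.092 to 0.63). No paired analysis was possible because there is 1 group. At this depth the levels of Mir450a-1 and Mir450a-2, at 23 to 72 counts, are the least precise.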

Other observations

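The cluster is a large part of the X-linked microRNA signal in these adrenal libraries. Of 142 microRNA genes annotated on the X chromosome, 36 reached 10 counts in each library and 83 had no count in either. These genes together held 5.01% of all counts in replicate 1 and 4.70% in replicate 2, and the 7 members gave 22.8% of that in replicate 1 and 22.5% in replicate 2. Mir322 ranked 2 on this chromosome, behind Mir652 at 13536 ± 1103 CPM (SD, n = 2), and Mir351 ranked 5. Mir542 ranked 15, Mir503 17 and Mir450b 24, while Mir450a-2 and Mir450a-1 ranked 34 and 36. These shares and ranks rest on counts that leave out reads with several alignments. Any X-linked gene with an identical mature copy is understated in them by an unknown amount, and the share of the members may be overstated.

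The nearest microRNA gene downstream of the cluster is Mir106a, at a gap of 305 kb, the first gene of the X-linked cluster that ends with Mir363. It had 203 counts in replicate 1 and 154 in replicate 2, a mean of 22.8 ± 0.865 CPM, and its log2 ratio of 0.019 did not pass (adjusted p = 0.95, exact binomial). On the upstream side the nearest is Gm22103, at 3016 kb, with no count in either library.

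Counts on the strand opposite to the members were 0 in replicate 1 for all 7 genes. In replicate 2 they were 0 for 6 genes and 2 for Mir322.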
